A study of Mus musculus with 20 samples.

Results

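Hepatoma tumors treated with the EZH2 inhibitor GSK343 together with an antibody against the chemokine CXCL10 were compared with tumors that received a control antibody and no inhibitor. The libraries were chosen by their treatment labels alone: 5 libraries of the combination (replicates 1 to 5) and 4 of the control antibody (replicates 1, 2, 3 and 5), 9 of the 19 libraries with expression values. The series labels 20 libraries in 4 groups of 5; control antibody replicate 4 was not analysed here. The other two groups, 5 libraries of control antibody plus GSK343 and 5 of anti-CXCL10 without the inhibitor, shared one estimate of the spread with these 9 and were set beside them.

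Every tumor grew from HEPA1-6, an established mouse hepatoma line, injected under the skin of C57/BL6 mice, and poly-A RNA of the whole tumor was sequenced after 4 weeks of growth. The 4 groups received, in turn, a control antibody (called control below), the control antibody with GSK343 (the inhibitor group), anti-CXCL10 antibody (the antibody group), and anti-CXCL10 antibody with GSK343 (the combination). One line and one site of injection underlie all 4 groups, and the mice keep their own immune cells, skin and muscle. The labels give neither the dose of GSK343 nor the antibody schedule. They do not state that replicates came from separate animals, and the series text speaks of 3 replicates where the labels number 5, so the spread behind each p-value is that between libraries and may be technical. Library numbers restart between the groups given control antibody and those given anti-CXCL10, so antibody and sequencing run, if these numbers mark runs, cannot be told apart.

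EZH2 is the catalytic subunit of Polycomb repressive complex 2 (PRC2), which methylates histone H3 and keeps developmental and some immune genes silent. CXCL10 is a chemokine induced by interferon; with CXCL9 and CXCL11 it attracts T cells and natural killer (NK) cells through the receptor CXCR3. Activated T and NK cells release interferon-gamma, which in turn induces the same chemokines, and the combination therefore addresses whether changes under the inhibitor are still seen when CXCL10 is bound by antibody.

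The liver origin of the tumors showed in both groups. Alb, the gene of serum albumin, was at 2775 to 3243 FPKM in the control libraries and 2648 to 4279 FPKM in the combination libraries, and Afp, a fetal liver protein gene, at 2000 to 2643 FPKM in the control libraries and 2062 to 3499 FPKM in the combination libraries. Trf, Hnf4a and the 3 Foxa genes were expressed as well, whereas the fetal growth genes H19 and Igf2 stayed below 5 FPKM in every one of the 9 libraries. The columns summed to between 533606 and 629679 FPKM (a read density scaled by transcript length and library size), and replicates correlated at 0.965 to 0.973 within the control and 0.963 to 0.977 within the combination (Pearson, log2 scale, across genes). Markers of neighbouring tissue differed between libraries. The mean log2(FPKM + 1) of 19 keratinocyte genes was 1.31 to 5.16 in the control and 1.26 to 3.71 in the combination, with control replicates 2 and 3 at 5.16 and 3.85. Of 27 skeletal muscle genes it was 1.29 to 2.20 in the control, 1.13 to 2.37 in the combination and 1.82 to 5.69 in the inhibitor group, where replicates 3, 4 and 5 were the highest of all libraries.

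Almost no single gene was called between the combination and the control. Of 14385 genes tested with limma on log2(FPKM + 1), none was higher (0%) and 1 was lower (0.00695% of genes tested, also the share in either direction) at a Benjamini-Hochberg adjusted p under 0.05. At an unadjusted p under 0.05, 724 genes were found, 290 higher and 434 lower, where an even spread of p-values would give 719. That count was 1045 with these groups fitted alone and 934 with muscle and keratinocyte marker levels as covariates (limma), both above the even spread. The median log2 difference over all genes was -0.00 and the median standard error was 0.14. For 13246 genes (92.1%) the 95% interval of the log2(FPKM + 1) difference lay within 2-fold in both directions. For the remaining genes a 2-fold difference on this scale was within the interval or beyond it. The comparison is thus narrow for most genes and wide for the variable ones. Below, within 2-fold always means this scale, so genes of few FPKM may differ more than 2-fold in FPKM. The libraries of the groups did not overlap for 361 genes (2.51% of those tested), 163 higher (1.13%) and 198 lower (1.38%) in the combination.

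**Figure D1:**
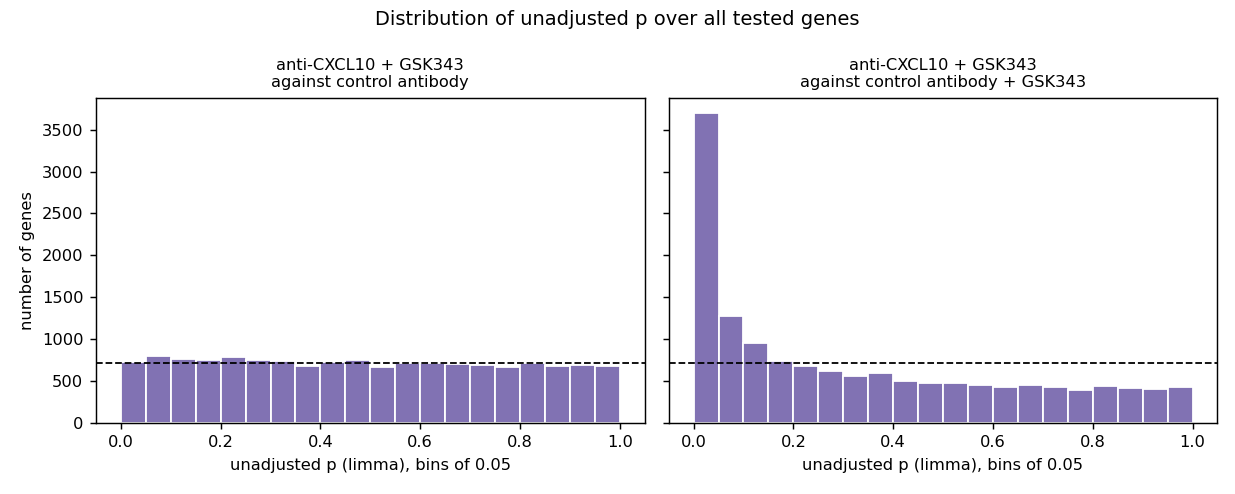
Number of genes (y axis) by unadjusted limma p-value (x axis) for the combination against the control (left) and against the inhibitor group (right), over 14385 genes each; the dashed line marks the even spread of 719 genes a bin. The left histogram is flat, with 724 genes under 0.05, and the right one rises at low p, with 3697 genes under 0.05.

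The gene that passed was Gm28062, a gene model without a given name on chromosome 1 (chr1:178323074-178337728, GRCm38), which overlaps Hnrnpu and Gm16586 and lies outside the rule by which genes were named. Gm28062 was at 313, 315, 241 and 284 FPKM in the 4 control libraries and at 131, 132, 146, 119.7 and 153 FPKM in the 5 combination libraries. All 5 combination libraries were below all control libraries. The difference was -1.07 ± 0.15 on the log2 scale (SE; 95% interval -1.38 to -0.77; limma adjusted p = 0.0112), from a mean of 288 ± 34.3 FPKM (SD, n = 4) to 136 ± 13.3 FPKM (SD, n = 5). In the antibody group, without the inhibitor, Gm28062 was at 178, 108, 122, 136 and 171 FPKM, and its difference from the control was -1.02 (limma adjusted p = 0.0208). In the inhibitor group it was at 167, 261, 214, 228 and 223 FPKM, -0.40 from the control (limma adjusted p = 0.126). Both antibody-treated groups were thus low and the inhibitor group lay between. The antibody-treated groups also share their library numbering, so antibody and sequencing run, if the numbers mark runs, cannot be told apart. The call was lost without control replicate 2 (adjusted p = 0.0983) or 5 (0.0651), without combination replicate 2 (0.0527) or 4 (0.0582), without both control libraries high in keratinocyte genes (-1.13, adjusted p = 0.0639), and with muscle and keratinocyte marker levels as covariates (-1.06, 0.051), with the difference between -1.15 and -1.03 when one library was left out.

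Hnrnpu, which encodes an RNA-binding nuclear scaffold protein and is transcribed from the same stretch (chr1:178324343-178337797, minus strand), gave a different picture. Hnrnpu was at 84.9, 79.4, 28.7 and 24.8 FPKM in the control libraries and at 69.4, 62.2, 71.2, 67.8 and 69.3 FPKM in the combination libraries. The control libraries fell into a high and a low pair, while the combination libraries lay close together between them. The difference of 0.52 ± 0.29 did not pass (limma adjusted p = 0.935). No source used here says whether reads were assigned by strand, so the reads of overlapping genes cannot be told apart; 3393 of the genes tested overlap another listed gene.

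Because only 1 gene passed, the 15 genes of lowest p in each direction with a given name and a mean of at least 5 FPKM in the higher of the 2 groups are reported as values, and none of these 30 differences passed (limma adjusted p from 0.395 to 0.875). Naa30 met that mean only through the combination (6.09 against 2.35 FPKM), and Ptx3 (7.697 against 1.92) and Slc8b1 (6.42 against 4.001) only through the control. Among those with lower values in the combination was Malat1, a long nuclear noncoding RNA. Malat1 was at 124, 182, 108 and 129 FPKM in the control and at 46.1, 55.9, 39.6, 31.7 and 56.3 FPKM in the combination. Every combination library was below every control library, with a difference of -1.55 ± 0.30 (95% interval -2.19 to -0.91; limma adjusted p = 0.395). With the control and the combination fitted alone, Malat1 did pass (adjusted p = 0.043), as it did without the inhibitor libraries highest in muscle genes (0.0484). The antibody group, at 56.9, 83.6, 78.1, 58.1 and 43.5 FPKM, was also below all control libraries, and the inhibitor group ranged from 91.4 to 328 FPKM. The limit on antibody and sequencing run given for Gm28062 holds for Malat1 too.

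Mtch2, a protein of the outer mitochondrial membrane, was at 79.4, 75.3, 86.7 and 84.2 FPKM in the control and at 47.9, 46.3, 44.01, 44.8 and 48.99 FPKM in the combination, a difference of -0.80 ± 0.18 (limma adjusted p = 0.593). These groups did not overlap, but the inhibitor group held libraries of both levels, at 43.9, 45.6, 78.6, 49.9 and 72.2 FPKM, as did the antibody group, at 47.2, 43.9, 42.5, 81.97 and 47.4 FPKM. Fitted without those groups, the Mtch2 difference passed (adjusted p = 0.00505). Casp9, the initiator caspase of the mitochondrial death pathway, which was below the level needed to be named and is given because the fit of the control and the combination alone called it (adjusted p = 0.0207), was at 1.21, 1.304, 0.923 and 1.29 FPKM in the control and 3.29, 3.099, 3.98, 3.36 and 2.697 FPKM in the combination (0.97 ± 0.23; adjusted p = 0.598 with all groups). Its mean was 3.11 FPKM in the inhibitor group and 3.45 FPKM in the antibody group, so the control was the lowest of the 4 groups. Pcdhb17, a protocadherin gene, was the fifth gene called in that smaller fit (1.07, adjusted p = 0.0154).

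Lrrc47, a leucine-rich repeat protein gene, was at 11.01, 10.3, 9.64 and 11.1 FPKM in the control and at 9.998, 4.298, 4.86, 4.57 and 3.79 FPKM in the combination. Combination replicate 1 sat among the control libraries and the other 4 were below them. The difference was -0.89 ± 0.21 (limma adjusted p = 0.598), and without that library it was -1.10 and passed (0.0355). The inhibitor group, at 4.68, 4.21, 4.39, 5.12 and 3.79 FPKM, was low throughout, -1.08 from the control (limma adjusted p = 0.00704).

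Fkbp1a, which encodes the binding protein of the drug FK506, was at 222, 95.5, 208 and 242 FPKM in the control and 88.03, 80.1, 67.5, 81.9 and 69.6 FPKM in the combination, with control replicate 2 close to the combination (-1.22 ± 0.31; limma adjusted p = 0.598). The antibody group held both low and high libraries, at 70.2, 178, 69.1, 170.3 and 62.4 FPKM. Ptx3, a secreted pattern-recognition protein, was at 2.35, 5.58, 18.1 and 4.72 FPKM in the control and 2.53, 1.25, 2.66, 1.64 and 1.54 FPKM in the combination, where control replicate 3 stood highest (-1.29 ± 0.33; limma adjusted p = 0.598). The other lower ones were Mtdh (-0.85), Snord12 (-0.86), Man2c1 (-0.77), Mrps25 (-0.75), Snora33 (-0.63), Gripap1 (-0.59), Slc8b1 (-0.57), Pnrc1 (-0.49), the PRC1 subunit gene Pcgf1 (-0.41) and Zrsr2 (-0.38).

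On the higher side the lowest p belonged to Ephb4, a receptor tyrosine kinase for ephrin-B2 known from vein development. Ephb4 was at 33.6, 31.8, 40.2 and 27.8 FPKM in the control and at 48.6, 44.8, 46.3, 51.6 and 51.1 FPKM in the combination. All combination libraries were above all control libraries (0.54 ± 0.11, 95% interval 0.32 to 0.76; limma adjusted p = 0.395). Crk, an adaptor protein of growth factor signalling, was at 13.99, 16.4, 14.98 and 14.99 FPKM against 22.8, 19.2, 23.8, 18.3 and 21.9 FPKM, again without overlap (0.46 ± 0.10; limma adjusted p = 0.412).

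Naa30, the catalytic subunit of an N-terminal acetyltransferase, was at 2.42, 2.28, 2.17 and 2.52 FPKM in the control and 7.73, 3.43, 7.18, 8.93 and 3.17 FPKM in the combination, all 5 above the control (0.99 ± 0.26; limma adjusted p = 0.598). Gorab, a Golgi protein gene, had the largest difference of the higher 15 and an uneven control, at 10.4, 0.777, 11.8 and 0.926 FPKM against 12.5, 12.1, 13.6, 11.6 and 13.4 FPKM (1.53 ± 0.44; limma adjusted p = 0.781). Control replicates 1 and 3 were close to the combination and replicates 2 and 5 were near 1 FPKM. The other 11 were March8 (0.95), Pisd (0.83), Pigq (0.77), Apol7c (0.75), Gng12 (0.69), Sh3kbp1 (0.62), Senp3 (0.53), Pacsin3 (0.48), Cdip1 (0.41), Qsox1 (0.35) and Zfp386 (0.28).

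**Figure D2:**
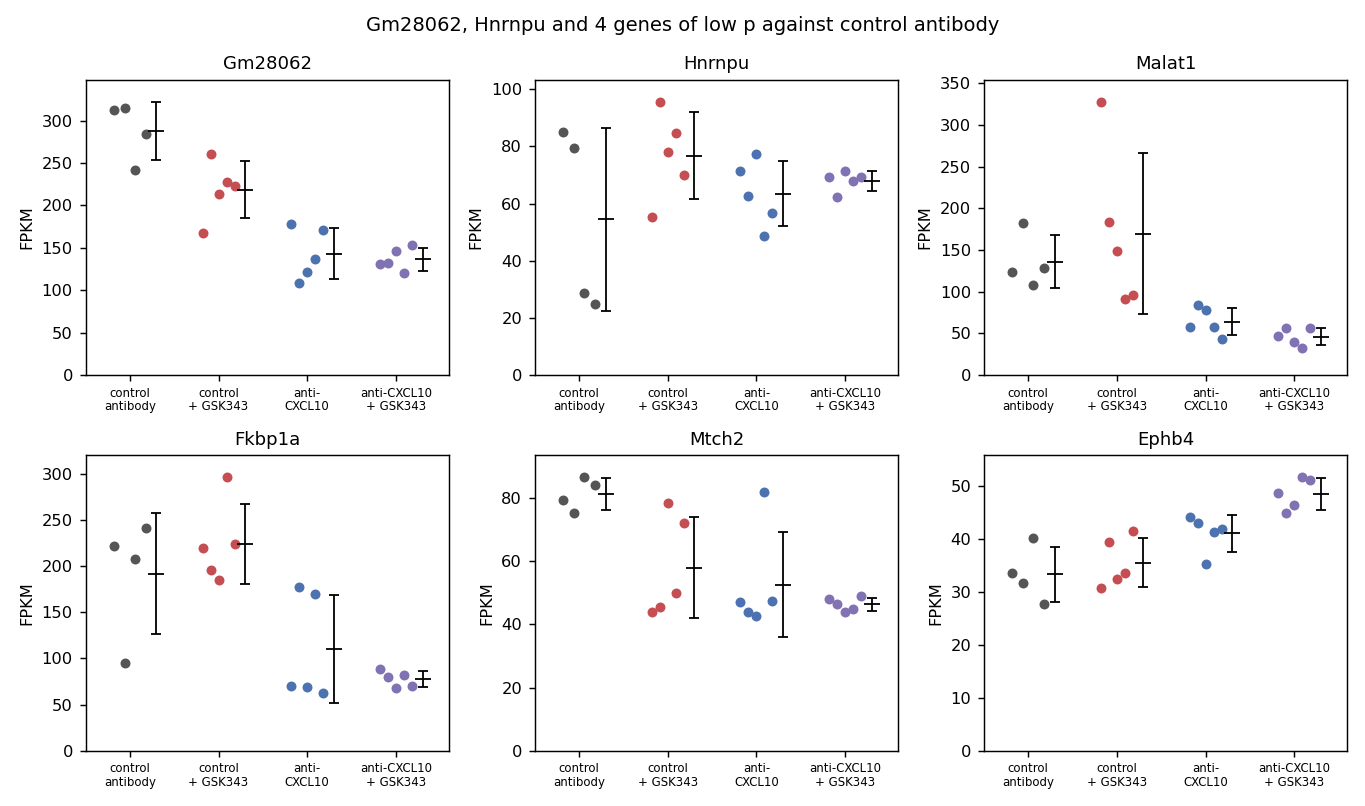
FPKM (y axes) of Gm28062, Hnrnpu, Malat1, Fkbp1a, Mtch2 and Ephb4 in each of the 19 libraries by group, points for libraries and a bar with whiskers for the mean ± SD. The combination lies below the control for Gm28062 (136 against 288 FPKM on average) and Malat1 (45.9 against 136), and the antibody group is low for both.

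The targeted chemokine was close to its control level. Cxcl10 was at 73.1, 112, 123 and 79.2 FPKM in the control and at 114, 111, 110.1, 131 and 82.2 FPKM in the combination, with overlapping ranges and means of 96.9 ± 24.5 FPKM (SD, n = 4) and 109.5 ± 17.4 FPKM (SD, n = 5). The difference was 0.19 ± 0.27 (95% interval -0.37 to 0.76; limma adjusted p = 0.961). In the inhibitor group Cxcl10 stood at 126, 283, 263, 165 and 188 FPKM, above the control by 1.05 ± 0.27 (limma adjusted p = 0.0299). The antibody binds the protein, and transcript levels do not show how much free CXCL10 was present.

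Cxcl9, another CXCR3 ligand, was at 44.8, 63.4, 90.2 and 43.6 FPKM in the control and 76.9, 77.03, 105, 88.1 and 71.9 FPKM in the combination. Only control replicate 3 reached into the combination's range, yet the interval of -0.20 to 1.22 around 0.51 included 0 (limma adjusted p = 0.935). Cxcl11, the remaining ligand, and Cxcr3, the receptor, were low, with means of 0.973 and 0.816 FPKM in the control and 1.09 and 0.975 FPKM in the combination. Neither differed past the threshold (Cxcl11 0.15 ± 0.43, limma adjusted p = 0.984; Cxcr3 0.11 ± 0.24, 0.977). All 5 members of this axis, Ifng included, had a positive difference, with a median of 0.19, and for 3 of the 5 the interval lay within 2-fold.

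Ifng, the gene of interferon-gamma, was at 2.25, 2.23, 3.62 and 2.34 FPKM in the control and 2.99, 4.902, 4.53, 3.46 and 2.14 FPKM in the combination, against 5.36, 11.5, 22.7, 5.697 and 8.01 FPKM in the inhibitor group. Combination and control overlapped (0.33 ± 0.30, interval -0.31 to 0.97; limma adjusted p = 0.941), and no combination library reached the lowest of the inhibitor group. Gzmb, the granule protease of cytotoxic cells, was at 9.18, 9.83, 15.97 and 9.09 FPKM in the control and 14.7, 15.9, 17.5, 14.3 and 6.52 FPKM in the combination (0.27 ± 0.31, interval -0.39 to 0.93; limma adjusted p = 0.956). Control replicate 3 lay among the 4 higher combination libraries, and combination replicate 5 was the lowest of all 9.

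Prf1, the pore-forming perforin gene, was at 2.12, 2.07, 4.86 and 2.44 FPKM in the control and 4.62, 6.69, 4.49, 6.14 and 3.33 FPKM in the combination, with only control replicate 3 inside the combination's range (0.67 ± 0.36, interval -0.08 to 1.42; limma adjusted p = 0.935). Cd8a, the co-receptor of cytotoxic T cells, was at 3.44, 6.59, 6.43 and 5.13 FPKM in the control and 6.102, 8.13, 6.62, 7.12 and 6.05 FPKM in the combination, overlapping (0.31 ± 0.23, interval -0.18 to 0.80; limma adjusted p = 0.935). For Prf1 and Cxcl9 the intervals reached past 1 on the log2 scale, so a doubling of either lay within the interval, while for Cd8a and Cxcl10 a doubling lay outside the interval.

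**Figure D3:**
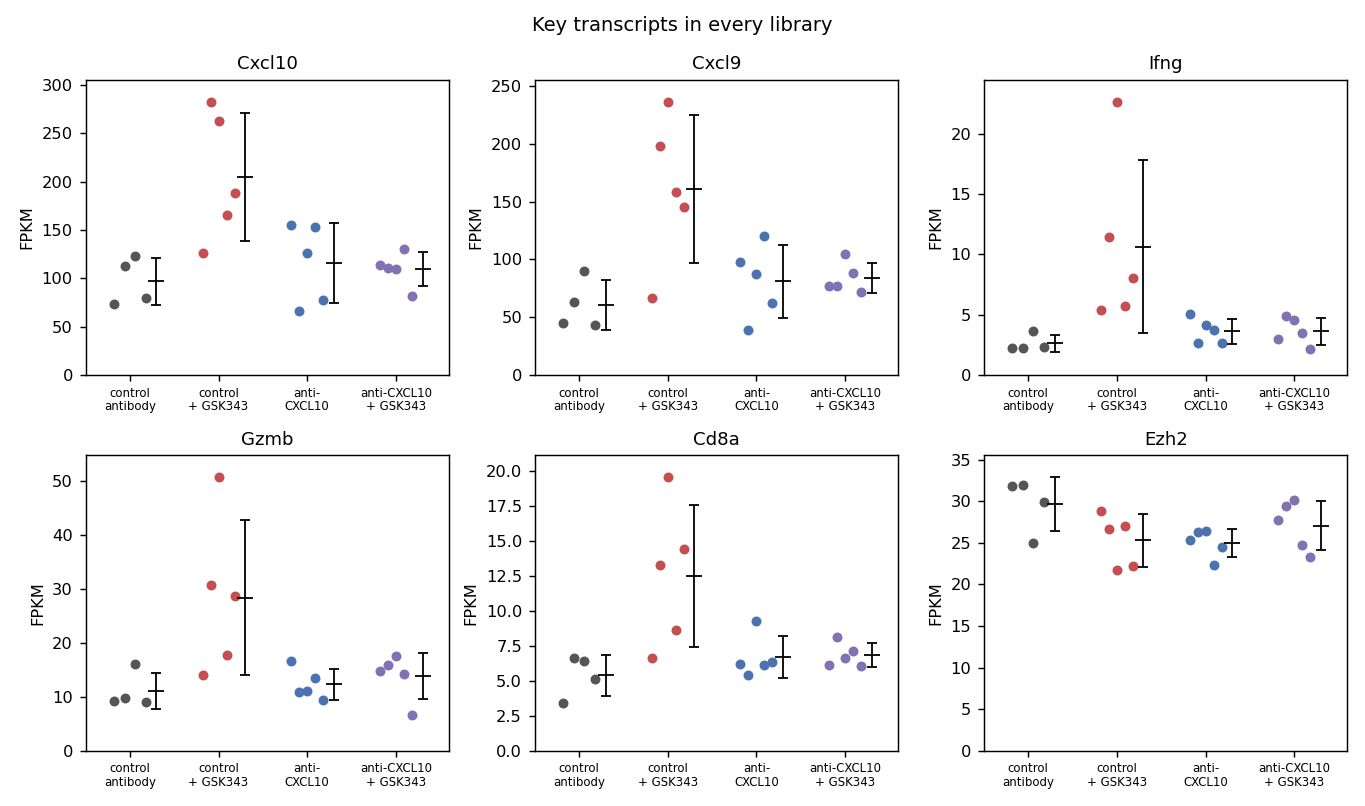
FPKM (y axes) of Cxcl10, Cxcl9, Ifng, Gzmb, Cd8a and Ezh2 in each library of the 4 groups, with the mean ± SD beside the points. The combination sits with the control for the immune genes (Cxcl10 109.5 against 96.9 FPKM, Ifng 3.604 against 2.61), and the inhibitor group has the highest means (205 and 10.6).

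Medians of immune gene lists were near the control, though several lists leaned to higher values, and not one of the 1031 tested members of 45 gene lists passed against the control. Over all 14385 genes tested, 7146 had a positive difference. Of 34 interferon-gamma response genes, 26 had an interval within 2-fold and 31 a positive difference, with a median of 0.29 beside -0.00 over all genes tested. Their lowest p was that of Ido1, which breaks down tryptophan, with means of 6.92 FPKM in the control and 11.7 FPKM in the combination (0.70 ± 0.32; limma adjusted p = 0.935), followed by the GTPase genes Tgtp2 (0.54), Tgtp1 (0.54) and Irgm1 (0.34). Of 39 type I interferon response genes, all 39 were bounded within 2-fold, and the median was 0.07. Isg20, an antiviral exonuclease (0.46), Ifih1, a sensor of viral RNA (0.45), Parp9 (0.32) and the transcription factor gene Irf9 (0.24) came first by p.

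Among 25 T cell markers the median was 0.18, 24 differences were positive and 24 were bounded within 2-fold. The adaptor gene Skap1 (0.42), the receptor chain gene Trac (0.58) and the CD3 chain gene Cd3e (0.34) had the lowest p. The mean log2(FPKM + 1) of this list was 1.92 to 2.41 in the control libraries, 2.19 to 2.63 in the combination and 2.52 to 3.83 in the inhibitor group. In whole tumors, fewer cells of a type and less RNA per cell cannot be told apart. Of 22 cytotoxic and NK genes the median was 0.31, with 16 bounded within 2-fold, and the NK receptor gene Klre1 (0.45), Prf1, Il2rb (0.40) and the granzyme gene Gzmk (0.47) came first. Of 14 regulatory T cell and checkpoint genes the median was 0.01, and the inhibitory receptor genes Tigit and Lag3 were at 0.42 and 0.42.

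Genes of antigen presentation were more often bounded within 2-fold than the T cell and cytotoxic lists. Medians were 0.08 for 23 MHC class I genes and 0.18 for 12 class II genes. All of them were bounded within 2-fold, beside 92.1% of all genes tested. Of these, 22 class I and 12 class II genes had a positive difference. Macrophage and monocyte markers had a median of 0.17 over 33 genes, of which the Fc receptor gene Fcgr1 (0.37) and the scavenger receptor gene Msr1 (0.33) had p-values among the lowest. The 23 genes shared by leukocytes had a median of 0.12, with 20 positive. Dendritic cell (-0.02), neutrophil and mast cell (-0.12) and B and plasma cell markers (-0.29) had negative medians, over 13, 16 and 9 genes; 12 of the 21 listed B and plasma cell genes were not tested. Of 32 chemokine genes outside the CXCR3 axis the median was -0.11, with Ccl25 (-0.31), Ccl7 (-0.66) and Cxcl1 (-0.78) first by p.

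Neither Ezh2, which encodes the inhibitor's target, nor any other tested PRC2 gene passed against the control. Ezh2 was at 31.8, 31.9, 24.99 and 29.9 FPKM in the control and 27.8, 29.4, 30.2, 24.8 and 23.3 FPKM in the combination, overlapping (-0.13 ± 0.10, interval -0.34 to 0.09; limma adjusted p = 0.935); GSK343 blocks the enzyme, so the transcript is no measure of its activity. All 11 PRC2 subunit genes were bounded within 2-fold, beside 92.1% of all genes tested. Their median was -0.05, with the histone-binding subunit gene Rbbp7 at 0.31 and the Polycomb-like factor gene Mtf2 at -0.21. PRC1, the partner complex, had a median of -0.02 over 20 genes.

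Developmental transcription factors, which PRC2 commonly keeps silent, were mostly absent from the table: of 114 listed genes 25 were in it and 23 were tested. The level of the absent genes is not known. None passed (limma). At an unadjusted p under 0.05, 5 were lower and 0 higher, beside 434 lower and 290 higher of all 14385 genes tested. All 23 were bounded within 2-fold, and 4 had a positive difference (median -0.14), beside 7146 of all genes tested. The lowest p-values belonged to the homeobox genes Hoxc8 (-0.41, unadjusted p = 0.00444, limma adjusted p = 0.875), Hoxd8 (-0.38) and Hoxa5 (-0.26) and to Sox18 (-0.35) and Sox9 (-0.36), all with lower values in the combination. Of the 23, the antibody group against the control had 3 lower and 0 higher at an unadjusted p under 0.05 (limma), and 2 positive (median -0.10). The inhibitor group against the control had 5 lower and 5 higher, and 9 positive (median -0.01). Hdac10, a histone deacetylase gene, was at 4.195, 6.89, 3.93 and 4.204 FPKM in the control and 3.02, 3.87, 3.29, 2.96 and 4.29 FPKM in the combination, with control replicate 2 the highest (-0.35 ± 0.17; limma adjusted p = 0.935), and 17 deacetylase genes had a median of -0.04.

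No tested gene of the liver lists passed against the control either. Plasma carrier genes (21 of 35) and metabolism genes (25 of 32) were less often bounded within 2-fold than all genes tested (92.1%). Of 35 genes for plasma carriers and protease inhibitors the median was -0.10, 13 were positive and 21 were bounded within 2-fold, the antitrypsin gene Serpina1d (-0.61) and the corticosteroid carrier gene Serpina6 (-0.79) having the lowest p. Apoa1, the main protein of high-density lipoprotein, was at 185, 107, 114 and 64.2 FPKM in the control and 124, 93.4, 94.4, 85.5 and 176 FPKM in the combination (0.01 ± 0.34; limma adjusted p = 0.999). The 20 hepatocyte transcription factor genes were all bounded within 2-fold (median -0.05), among them Foxa2 (-0.33) and Hnf4a (0.22). Of 32 genes of xenobiotic and amino acid metabolism the median was -0.05, and the cytochrome gene Cyp2e1 had the lowest difference (-1.22 ± 0.48; limma adjusted p = 0.898).

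Cell division and growth genes were also near the control. The median of 34 mitosis genes was 0.08, with 28 positive and 33 bounded within 2-fold, and the spindle gene Prc1 (0.64, limma adjusted p = 0.875), Nusap1 (0.28) and Bub1 (0.24) came first. DNA replication genes (0.00 over 40), oxidative phosphorylation subunits (-0.05 over 69), ribosomal proteins (-0.04 over 79) and p53 targets and apoptosis regulators (-0.03 over 38) had medians near 0. Rps15a, a ribosomal protein gene, was at 177, 160.3, 942 and 165 FPKM in the control and 879.8, 800.4, 906, 403 and 967 FPKM in the combination (1.55 ± 0.58; limma adjusted p = 0.875), with control replicate 3 among the combination libraries.

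Fibroblast matrix genes and immediate early genes were read beside all 14385 genes tested, of which 434 were lower and 290 higher at an unadjusted p under 0.05. Of 40 collagen and matrix genes 0 passed (limma; 8 were lower and 0 higher at an unadjusted p under 0.05), 1 had a positive difference, and the median was -0.32 beside -0.00 over all genes tested. Col1a1, the main chain of collagen I, was at 116, 243, 159 and 104 FPKM in the control and 88.9, 124, 130, 86.8 and 116 FPKM in the combination (-0.45 ± 0.24; limma adjusted p = 0.935). Control replicates 2 and 3 were above every combination library, and replicates 1 and 5 were among them. Col14a1 (-0.495), the collagen cross-linking enzyme gene Lox (-0.76) and the proteoglycan gene Bgn (-0.73) had the lowest p of the list.

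Immediate early genes encode transcription factors and feedback regulators switched on within minutes of a stimulus. Of 24 such genes 0 passed (limma; 8 lower and 0 higher at an unadjusted p under 0.05), 3 were positive, and the median was -0.24. Egr1, a zinc finger factor, was at 40.5, 80.6, 55.3 and 43.02 FPKM in the control and 30.5, 38.3, 43.7, 32.4 and 19.6 FPKM in the combination (-0.71 ± 0.23; limma adjusted p = 0.875), and Fosb, a partner in the AP-1 factor, at 2.47, 25.8, 8.71 and 3.302 FPKM and 3.34, 1.73, 2.09, 2.55 and 2.85 FPKM (-1.19 ± 0.46; 0.886). Control replicates 2 and 3 again held the highest values of both genes.

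Those same control libraries were the ones with the most keratinocyte RNA. Over the 19 keratinocyte genes tested of 23 listed, the summed level was 376 to 1345 FPKM in the control and 413 to 589 FPKM in the combination, 1 had a positive difference (median -0.59), and 9 of the 19 were at 0 in control replicate 1 and none in replicates 2 and 3. Krt14, a keratin of the basal epidermis, ranged from 0.0506 to 205 FPKM in the control and from 0.254 to 53.3 FPKM in the combination. Without control replicates 2 and 3, the matrix genes lower at an unadjusted p under 0.05 went from 8 to 0 (median -0.11), the immediate early genes from 8 to 0 (median -0.04), and the keratinocyte median became 0.76. The interferon-gamma median became 0.48 with 10 genes higher at an unadjusted p under 0.05, the T cell median 0.33 and the cytotoxic median 0.51, and 0 members of these lists passed. That reduced fit called 2 genes, both higher, Ets1, a lymphoid and endothelial transcription factor (2.11, limma adjusted p = 1.87e-05), and Specc1l (1.67, 5.04e-06), with 2 control libraries left. The libraries left out held the highest Col1a1, Egr1 and Fosb values and were picked after seeing the data. Matrix and immediate early differences were smaller in that fit. Keratinocyte RNA, the choice of libraries and the smaller control cannot be told apart there, and the cause was not tested. Skeletal muscle genes, at a summed 104 to 211 FPKM in the control and 105 to 232 FPKM in the combination, covered nearly the same range in both.

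**Figure D4:**
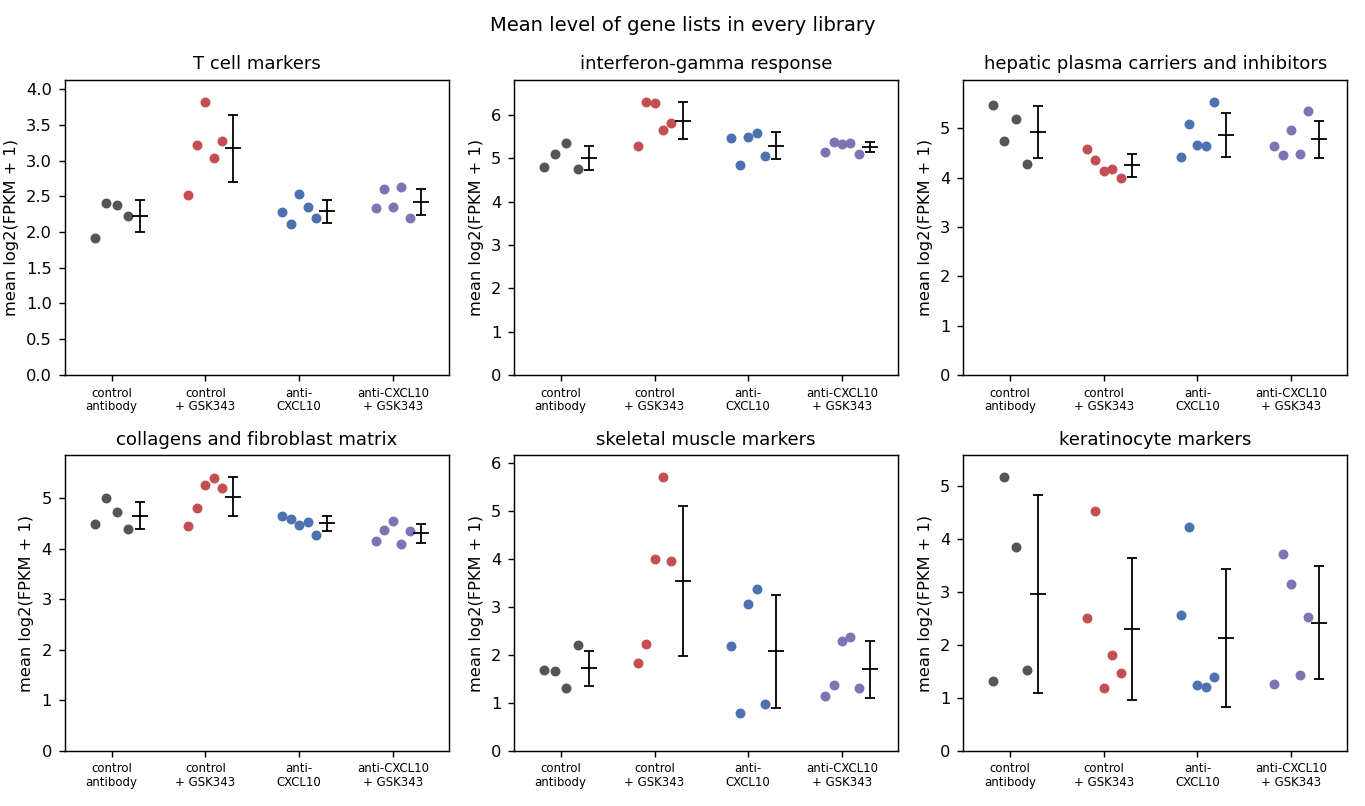
Mean log2(FPKM + 1) (y axes) of the T cell, interferon-gamma, plasma protein, collagen and matrix, skeletal muscle and keratinocyte lists in every library of the 4 groups, with the mean ± SD. T cell levels are 1.92 to 2.41 in the control and 2.19 to 2.63 in the combination, control replicates 2 and 3 are high in keratinocyte genes (5.16 and 3.85), and 3 inhibitor libraries are high in muscle genes.

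The direct comparison with the inhibitor group is one of tumors that all received GSK343, with anti-CXCL10 or with control antibody. Library numbers restart between these groups, so antibody and sequencing run, if the numbers mark runs, cannot be told apart in it. The combination differed in 1456 genes (10.1% of those tested), 501 higher (3.48%) and 955 lower (6.64%) in the combination, of which 17 and 202 changed at least 2-fold. Without inhibitor replicate 2 the count was 932, without its replicate 3 it was 861, without combination replicate 1 it was 963 and without combination replicate 5 it was 837. Inhibitor replicates 3, 4 and 5 carried the most muscle RNA (27 genes of 32 listed, summed 144 to 3072 FPKM in the inhibitor group); none of the 27 was at 0 in those 3 libraries. Without them 497 genes passed (229 higher, 268 lower), and with muscle and keratinocyte levels as covariates 14 did (2 higher, 12 lower). Both settings were chosen after seeing the data. The fit without those libraries kept only replicates 1 and 2 of the inhibitor group and is less precise. A call lost in it, here or below, does not show that a difference was absent. With the covariates, none of the 18 genes named below for the size of their difference passed, and of the immune, immediate early, matrix, plasma protein and liver factor lists described below a single leukocyte gene did (limma). For scale, the inhibitor group differed from the control in 787 genes (5.47%), the antibody group from the control in 2 (0.0139%) and the combination from the antibody group in 0 (0%; limma, 418 at an unadjusted p under 0.05). These comparisons share control or combination libraries with those above, and their values are given side by side only.

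Of 39 type I interferon response genes 18 fell and 0 rose between the inhibitor group and the combination (limma), and the promoters of 3 interferon-induced genes that fell are shown: Cxcl10, whose product is the antibody's target, and the 2 type I interferon response genes of lowest p whose promoter holds the core of the interferon-stimulated response element. The 250 bases before the transcription start (RefSeq, GRCm38.p6) were searched on both strands for GAAANNGAAA, where N is any base, and capitals mark each match. Such a match is in 936 of 27025 RefSeq promoters (3.46%) and is a description of the letters only.
Cxcl10, chr5:92348890-92349139, minus strand: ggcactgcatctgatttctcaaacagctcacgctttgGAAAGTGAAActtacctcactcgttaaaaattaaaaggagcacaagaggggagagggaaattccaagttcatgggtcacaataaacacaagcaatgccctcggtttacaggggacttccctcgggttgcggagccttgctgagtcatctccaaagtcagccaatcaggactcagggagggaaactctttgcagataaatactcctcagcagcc
Ifit1, chr19:34640639-34640888, plus strand: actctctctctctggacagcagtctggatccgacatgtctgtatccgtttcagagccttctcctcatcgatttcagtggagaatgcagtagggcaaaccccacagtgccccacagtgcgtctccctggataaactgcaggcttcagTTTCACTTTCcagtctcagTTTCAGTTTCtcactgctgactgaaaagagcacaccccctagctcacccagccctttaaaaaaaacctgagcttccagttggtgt
Oas3, chr5:120777660-120777909, minus strand: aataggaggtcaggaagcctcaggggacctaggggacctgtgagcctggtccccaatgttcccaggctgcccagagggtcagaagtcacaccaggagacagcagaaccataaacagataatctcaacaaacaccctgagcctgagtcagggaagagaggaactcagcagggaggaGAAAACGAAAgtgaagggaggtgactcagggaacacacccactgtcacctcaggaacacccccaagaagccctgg

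Ifit1, an antiviral RNA-binding protein gene with 2 matches in its promoter, was at 2.78, 3.49, 4.55 and 3.13 FPKM in the control, 7.86, 10.2, 9.21, 6.44 and 6.49 FPKM in the inhibitor group and 3.37, 4.36, 3.05, 3.64 and 3.76 FPKM in the combination. Combination and control overlapped, and both lay below every inhibitor library (-0.95 ± 0.17 between combination and inhibitor; limma adjusted p = 0.00303). Oas3, a synthetase activated by double-stranded RNA, was at 0.667, 1.78, 1.53 and 1.52 FPKM in the control, 3.31, 5.17, 4.98, 2.83 and 2.66 FPKM in the inhibitor group and 0.733, 2.34, 1.75, 0.946 and 1.31 FPKM in the combination, again with no overlap between combination and inhibitor group (-0.99 ± 0.23; limma adjusted p = 0.0136). Cxcl10 in the combination differed from the inhibitor group by -0.85 ± 0.25 (limma adjusted p = 0.0411), a call lost without any one of inhibitor replicates 2, 3 and 5 or combination replicates 1, 2, 3 and 5 (0.0644 to 0.107) and without the 3 libraries high in muscle genes (0.202).

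The median of the 39 type I interferon genes was -0.67, and of 34 interferon-gamma response genes 11 fell (median -0.55). Socs1, a feedback inhibitor of cytokine signalling, averaged 15.5 FPKM in the control, 40.1 in the inhibitor group and 18.5 in the combination (-1.06; limma adjusted p = 0.0124). Gbp7, a GTPase of cell-autonomous defence, averaged 30.9, 60.2 and 33.6 FPKM in that order (-0.80; 0.00508), and the serpin gene Serpina3f 4.06, 12.98 and 4.71 FPKM (-1.22; 0.00409). Without the 3 libraries high in muscle genes, 2 type I and 2 interferon-gamma genes passed, at medians of -0.67 and -0.58.

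T cell genes were lower too: 16 of 25 fell and 0 rose (median -0.71). Cd2, an adhesion receptor of T cells, averaged 5 FPKM in the control, 14.2 in the inhibitor group and 5.78 in the combination (-1.09; limma adjusted p = 0.00457), and the T cell receptor signalling genes Lat (-1.11; 0.00508) and Lck (-1.02; 0.00562) fell as well. Of 22 cytotoxic and NK genes 11 fell, among them Ccl5, with means of 61.4, 182 and 76.2 FPKM in control, inhibitor group and combination (-1.19; 0.0145), the granzyme gene Gzmc (-1.21) and the NK receptor gene Klrd1 (-1.12). Ifng fell by 1.19 ± 0.29 on the log2 scale (limma adjusted p = 0.015; 0.0667 without the 3 libraries high in muscle genes) and Cd8a by 0.71 ± 0.22 (0.0464; 0.324), while Gzmb (-0.92 ± 0.29; 0.0557), Prf1 (-0.84 ± 0.34; 0.125) and Cxcl9 (-0.83 ± 0.32; 0.106) missed the threshold. Without inhibitor replicate 1 these 3 did pass (limma adjusted p = 0.0143, 0.0446 and 0.0134, in that order), as did Gzmb (0.0455) and Prf1 (0.0484) without inhibitor replicate 4 and Gzmb with quantile scaling (0.0481). The Cd8a call was also lost without any one of inhibitor replicates 2, 3 and 5 or of the 5 combination libraries (0.0546 to 0.122). Without those 3 libraries 0 T cell and 0 cytotoxic genes passed, at medians of -0.43 and -0.59 (limma; 9 and 6 at an unadjusted p under 0.05).

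Macrophage markers had the largest count of the immune lists, with 22 of 33 lower and 1 higher (median -0.83). Aif1, a calcium-binding protein of macrophages, averaged 38.4 FPKM in the control, 78.9 in the inhibitor group and 39.3 in the combination (-0.999; limma adjusted p = 0.0014). Spp1, the osteopontin gene, was the one that rose (0.56; 0.00778). Among chemokines outside the CXCR3 axis 14 of 32 fell, including Ccl6, with means of 74.4, 241 and 68.5 FPKM (-1.80; 0.000845), and Ccl8, with 125, 328 and 97.6 FPKM (-1.67; 0.0034), both attractants of myeloid cells. Of class II presentation genes 6 of 12 fell, with the protease gene Ctss averaging 271, 790.3 and 305 FPKM (-1.34; 0.00278). The checkpoint gene Ctla4 averaged 3.297, 8.06 and 2.58 FPKM (-1.23; 0.00989). Without the 3 libraries high in muscle genes, 2 macrophage, 5 chemokine and 6 of 23 leukocyte genes passed as lower, where 22, 14 and 14 did with all libraries.

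The largest falls included genes of antibody-producing cells and of connective tissue. Igj, which joins antibody units, was at 0.763, 0.153, 9.32 and 9.24 FPKM in the control, 21.8, 69.1, 59.2, 39.6 and 32.3 FPKM in the inhibitor group and 1.498, 5.07, 1.29, 1.34 and 0.0839 FPKM in the combination. Every inhibitor library was above every control and combination library (-4.10 ± 0.59; limma adjusted p = 0.0014), whereas combination and control overlapped (-0.65 ± 0.63; 0.943). Of 9 B and plasma cell genes 5 fell and 2 rose, Xbp1 (0.30) and Sdc1 (0.33), which other cells express too, and the antibody heavy chain gene Ighm averaged 25.2, 189 and 9.197 FPKM (-3.70; 0.00567). The connective tissue genes Dpt (-2.07; 0.00508), Ogn (-2.15; 0.00224) and Clec3b (-2.35; 0.00481), the eosinophil attractant gene Ccl11 (-2.08; 0.00814), the macrophage chitinase-like gene Chil3 (-2.70; 0.0485), the muscle calcium-binding gene Pvalb (-3.07; 0.0212) and the carbonic anhydrase gene Car4 (-2.04) completed the falls of largest size, with Fosb and Nos2. Calls were lost on leaving out one library for Chil3 (inhibitor replicates 2, 3 and 4 or any combination library, 0.0577 to 0.126), Car4 (inhibitor replicates 2 and 3, combination replicates 1, 4 and 5, 0.0561 to 0.0719) and Pvalb (inhibitor replicate 3, combination replicates 1 and 5, 0.0514 to 0.0585). Without the 3 libraries high in muscle genes Igj, Ogn and Car4 passed and Dpt (0.138), Clec3b (0.152), Ccl11 (0.0667), Chil3 (0.122) and Pvalb (0.378) did not.

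Nos2, the inducible nitric oxide synthase gene, was at 4.96, 21.9, 36.2, 11.9 and 12.4 FPKM in the inhibitor group and 1.21, 4.44, 6.42, 3.43 and 1.49 FPKM in the combination, with the control at 1.71, 1.97, 6.17 and 1.84 FPKM (-1.96 ± 0.45; limma adjusted p = 0.0117). Fosb was at 17.4, 10.7, 21.5, 10.2 and 16.01 FPKM in the inhibitor group, above all combination libraries (-2.17 ± 0.43; limma adjusted p = 0.00578). In all, 16 of 24 immediate early genes fell and 0 rose (median -0.71), among them Atf3, with means of 27.9, 48.8 and 16.96 FPKM (-1.44; 0.00228), and Zfp36, which speeds decay of cytokine messages (-1.23; 0.00211). Of 40 matrix genes 18 fell (median -0.64), including elastin, Eln, with means of 2.85, 5.92 and 1.11 FPKM (-1.65; 0.00274). Without the 3 libraries high in muscle genes these counts were 4 and 2, and the adjusted p was 0.134 for Nos2 and 0.0703 for Fosb.

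Several liver genes rose. Of 20 hepatocyte transcription factor genes 5 rose and 0 fell (median 0.19), among them the pioneer factor gene Foxa1, at 4.805, 3.86, 3.94 and 4.21 FPKM in the control, 2.498, 2.15, 2.16, 2.43 and 2.35 FPKM in the inhibitor group and 4.12, 3.56, 3.36, 3.96 and 4.98 FPKM in the combination. Every combination and control library of Foxa1 was above every inhibitor library (0.58 ± 0.11; limma adjusted p = 0.00448). Of 35 plasma carrier and inhibitor genes 6 rose and 4 fell, the clotting factor genes F10 (-1.16) and F7 (-1.31) and the serpin genes Serping1 (-1.21) and Serpinf1 (-0.90), which cells outside the liver also express (median 0.52), and Alb averaged 3004 FPKM in the control, 2216 in the inhibitor group and 3212 in the combination (0.52 ± 0.12; limma adjusted p = 0.0128). Apoa1 (1.16; 0.0317), the glutathione transferase gene Gsta3 (1.51; 0.0189) and the thrombin inhibitor gene Serpind1 (1.37; 0.00303) were among the 10 largest rises. Calls were lost without one library for Apoa1 (inhibitor replicates 2, 3 and 4, combination replicates 1 and 5, 0.0566 to 0.0894) and Gsta3 (combination replicate 5, 0.055). Without the 3 libraries high in muscle genes none of these 3 passed (0.076 to 0.325), 1 hepatocyte factor gene did, and 0 plasma carrier genes passed as higher (limma, 3 at an unadjusted p under 0.05; median 0.40).

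Others of the 10 largest rises were Rps15a (1.80 ± 0.54; limma adjusted p = 0.0442), Eps8 (1.54), Diablo (1.38), Fmo2 (1.32) and Pip5k1a (1.27). The Rps15a call was lost without any one library except inhibitor replicate 3 and combination replicate 4 (0.0629 to 0.0974) and that of Fmo2 without any one combination library (0.0518 to 0.0725). Without the 3 libraries high in muscle genes Rps15a (0.104) and Eps8 (0.0639) did not pass, nor did Diablo with the compared groups fitted alone (0.0651). Diablo, a mitochondrial activator of apoptosis, was at 12.9, 4.93, 3.76, 4.58 and 23.4 FPKM in the inhibitor group and 23.9, 21.8, 20.6, 23.1 and 20.8 FPKM in the combination, where inhibitor replicate 5 lay within the combination's range. Rps15a was uneven in the inhibitor group as in the control, at 203, 165, 656, 139 and 155 FPKM. PRC2 genes did not differ past the threshold: 0 of 11 rose and 0 fell (limma, 0 and 1 at an unadjusted p under 0.05), and Ezh2 differed by 0.10 ± 0.10. Of 23 developmental transcription factor genes 6 fell and 1 rose, Tbx3 (0.39), with Hoxc8 (-0.66; 0.00318), Hoxd8 (-0.80) and Hoxc6 (-0.90) among the falls; 3 fell without the 3 libraries high in muscle genes. Malat1 and Gm28062 were lower here as well (-1.73 ± 0.29, limma adjusted p = 0.00231, and -0.67 ± 0.14, 0.00672; 0.0889 without those 3 libraries), and Ephb4 was higher (0.45 ± 0.10; 0.00987).

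**Figure D5:**
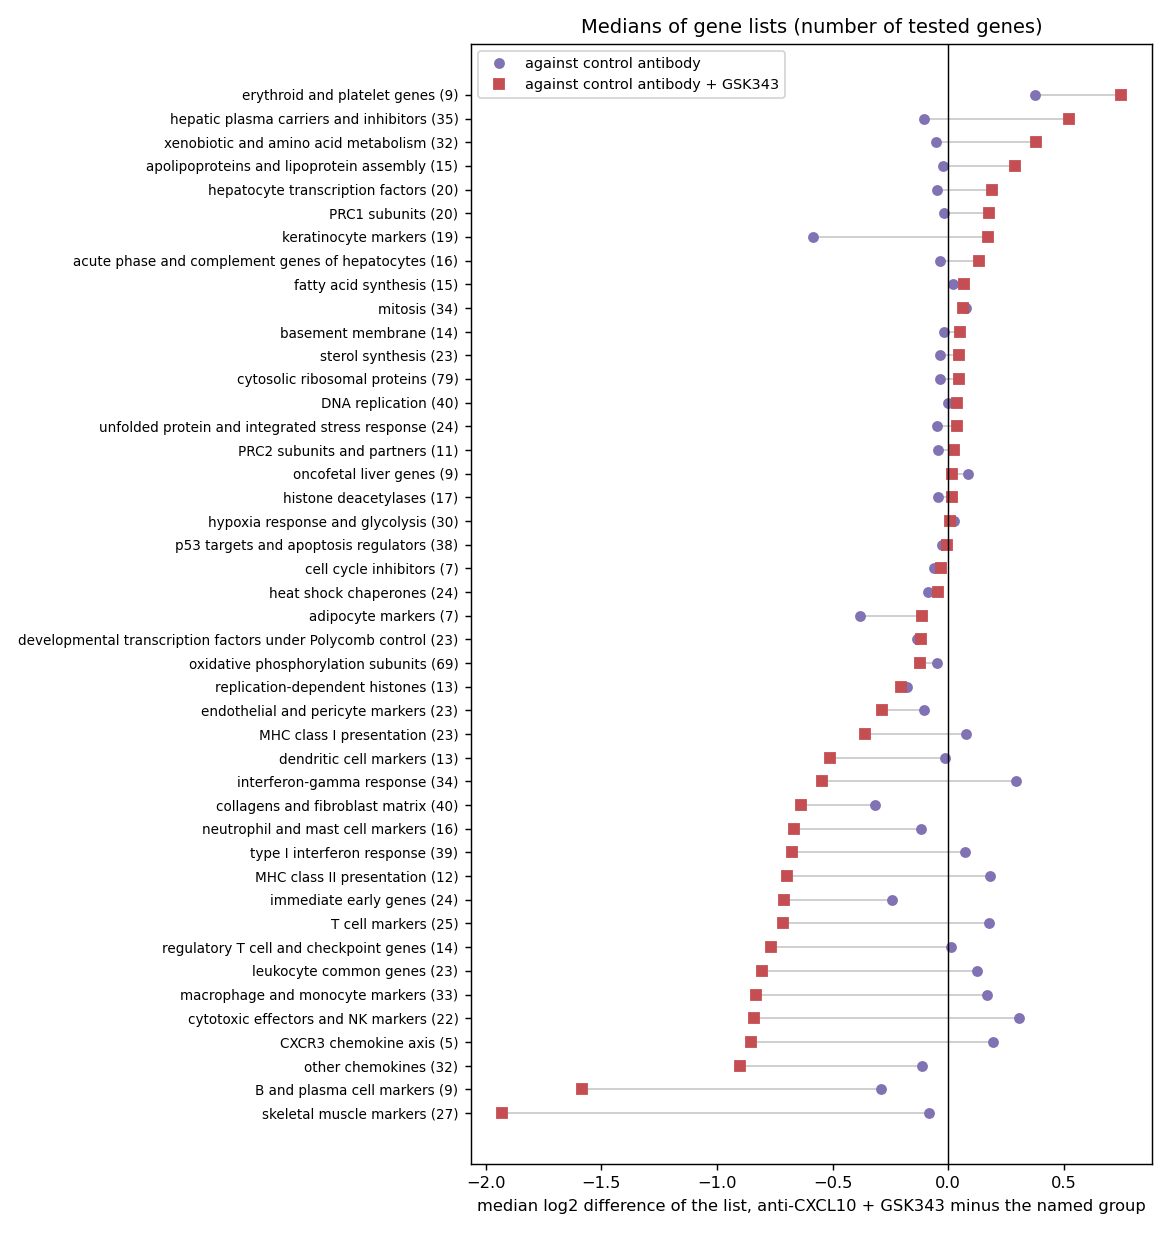
Median log2 difference (x axis) of each gene list with at least 5 tested genes (y axis), circles for the combination against the control and squares for the combination against the inhibitor group. Most circles lie near 0 (T cell markers 0.18) while the squares of immune lists lie to the left (T cell markers -0.71) and the plasma protein list to the right (0.52).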

How the data were processed

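RNA-seq of subcutaneous mouse tumors was taken from the authors' deposited table of FPKM values (14646 rows). No header names the unit: it was read as FPKM because sums weighted by transcript length varied less between libraries (0.79%) than plain sums (4.06%). Depth is unknown, since no whole-read steps could be recovered. Per the submitters' processing notes the tools include StringTie 1.3.3b, HTSeq 0.6.0, HISAT2 2.1.0, TopHat2 2.1.0 and Trimmomatic 0.33, with GRCm38 (mm10). Rows of 8 repeated gene identifiers were added, and a symbol shared by several identifiers counts once for each. Every gene in the table already had at least 1 FPKM in 4 or more libraries, and the level of genes absent from it is not known. Genes with at least 1 FPKM in 5 or more libraries were tested (14385 of 14633, with 248 removed).

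limma 3.58.1 (R 4.3.3, statmod 1.5.0; trend, robust empirical Bayes) was fitted to log2(FPKM + 1) with 4 group means over 19 libraries, without a block, and p-values were adjusted over all genes by Benjamini-Hochberg; log2 differences on this scale understate the change of low genes. Each of 5 contrasts was adjusted on its own. A count test was planned had the table held counts, and was not run. The script was tested on simulated data. Genes were named by rule: up to 15 per direction against the control (10 against the inhibitor group) by size among those passing at a mean of 5 FPKM or more in the higher group, places left going to the lowest p, without unnamed gene models, pseudogenes and receptor segments; 10 key genes; and list members by p. Some named items are not reported here. The comparison, the 45 gene lists and the rule were chosen with earlier results of these data known. Alternatives were the pseudocount (0.1), the filter (none, 5 FPKM), median-ratio and quantile scaling, non-robust variances, a 2-fold minimum, a fit of the compared groups by themselves, a replicate block and leaving out each library; 3 more (both sets of marker-high libraries left out, and marker levels as covariates) were chosen after seeing the data.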

Additional observations from a re-analysis of the deposited data

Results flagged for a closer look

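Genes and lists were checked within groups of 4 or 5 libraries, each counted once per group. Of 208 such checks, 17 had a single library far from the rest relative to the group's range (Dixon's 95% critical value). Chance alone marks about 1 in 20 groups. In the control, replicate 3 was the highest in Gzmb (16.0 FPKM), Prf1 (4.86 FPKM) and Ifng (3.62 FPKM). Control replicate 2 was the highest in Hdac10 (6.89 FPKM), Gripap1 (29.0 FPKM) and the heat shock list (mean log2(FPKM + 1) of 6.199). Control replicate 5 was the lowest in Qsox1 (16.3 FPKM). In the combination, replicate 1 was the highest in Lrrc47 (9.998 FPKM), replicate 2 was the highest in Igj (5.07 FPKM) and Cxcl11 (2.15 FPKM), and replicate 3 was the highest in Dpt (5.64 FPKM). Combination replicate 5 was the highest in Serpind1 (60.0 FPKM) and the lowest in the cytotoxic and NK list (2.098) and the hypoxia and glycolysis list (5.95), both as mean log2(FPKM + 1). In the inhibitor group, the single high libraries were replicate 1 for Gsta3 (33.4 FPKM), replicate 3 for Rps15a (656 FPKM) and replicate 4 for Pip5k1a (16.0 FPKM). No explanation for these was tested.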

How the results depend on the processing

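The counts of genes against the control stayed at 1, Gm28062, under another pseudocount, filter, scaling or variance estimate and with a 2-fold minimum. They were 0 with the replicate block, 5 for the compared groups alone, 0 to 2 when one library was left out (1600012H06Rik joined Gm28062 without control replicate 1, and Lrrc47 without combination replicate 1), 2 without the inhibitor libraries high in muscle genes, 0 with marker covariates and 2 without the control libraries high in keratinocyte genes. Same-numbered libraries of the combination and the control correlated in their deviations at 0.11, 0.18, 0.14 and -0.02, and 2 of the 4 correlated best with their own number, so the numbers were not taken as pairs; with the replicate block Gm28062 had an adjusted p of 0.139, and Gzmb against the inhibitor group 0.0476. Against the inhibitor group the count of 1456 was 219 with a 2-fold minimum, 1491 with the replicate block, 837 to 1829 when one library was left out, 497 without the muscle-high libraries and 14 with covariates. Against the antibody group it was 0, and 0 to 1 when one library was left out (Ier3ip1). The inhibitor group against the control gave 787 genes, 229 with a 2-fold minimum, 233 for those groups alone, 299 to 1389 when one library was left out, 15 without the muscle-high libraries and 9 with covariates. The antibody group against the control gave 2 (Gm28062 and Cav1), 0 with the replicate block, 1 for those groups alone (Pcdhb17, higher), 0 to 2 when one library was left out, 3 other genes, all higher, without the control libraries high in keratinocyte genes (Ets1, Cdc14b and Specc1l), 0 without the muscle-high libraries and 0 with covariates. Of 41 genes named against the control, 847 of 858 recomputed values stayed on their side of the threshold, 7 no longer passed in 1 gene, 4 newly passed in 3 genes and none reversed; against the inhibitor group 555 of 679 did for 31 genes, 115 no longer passed in 24 of these genes, 9 newly passed in 5, and none reversed. The causes were not tested. Depth cannot be read from FPKM, so counting error is not separated from other spread, and the smallest groups of 4 and 5 limit precision to the intervals given.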

Other observations

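Antibody gene segments, which mark clones of B and plasma cells, were not a gene list of their own and were added after values had been seen. The B and plasma cell list already holds constant segment genes such as Ighm, so its counts overlap with those of the constant segments. Between the combination and the control, 49 immunoglobulin V segments had a median difference of 1.33 and 42 positive values, with 0 passing (limma; 3 higher and 0 lower at an unadjusted p under 0.05, beside 290 higher and 434 lower of all 14385 genes tested), while 7 constant segments had a median of -0.38. The summed level of the listed immunoglobulin V segments was 3.06, 3.64, 82.0 and 11.2 FPKM in the control libraries and 3.20, 29.3, 801, 7.45 and 1073 FPKM in the combination libraries, so that combination replicates 3 and 5 were high and the other combination libraries lay within the control's range. The mean log2(FPKM + 1) of the V segments was 0.26 in the control, 1.43 in the combination, 1.05 in the antibody group and 2.47 in the inhibitor group. Testing required 1 FPKM in 5 libraries, and the control has 4. The V segments were thus tested only with the help of other groups, which favours positive differences from the control. Their median and count of positive values are therefore no evidence of a rise. Against the inhibitor group 6 V segments and 5 constant segments fell, the constant segments at a median of -2.57. For 13 T cell receptor segments the median against the control was 0.27.

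Of 308 lincRNA and antisense genes, 0 passed against the control (limma; 2 higher and 28 lower at an unadjusted p under 0.05), at a median of -0.07; 119 snoRNA genes gave 8 higher and 8 lower by the same measure, beside 290 higher and 434 lower of all 14385 genes tested. Cfd, the adipocyte protease adipsin, had the most negative difference of all genes tested (-2.18 ± 0.76; limma adjusted p = 0.875), at 2.66, 2.77, 39.7 and 28.6 FPKM in the control and 3.73, 3.85, 1.77, 0 and 0.556 FPKM in the combination, and 7 adipocyte genes had a median of -0.38. Cav1, the main protein of caveolae, was called in the antibody group against the control (-1.49, limma adjusted p = 0.0244), and in the combination it was at 4.96, 8.95, 11.6, 9.97 and 6.399 FPKM beside 8.16, 13.97, 9.32 and 13.6 FPKM in the control (-0.41 ± 0.23; limma adjusted p = 0.935).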
